A study of Homo sapiens with 10 samples.

Results

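The DNA replication and G1/S genes described here are a set of 31 genes, listed by symbol: the helicase and its loaders, the polymerase and clamp factors, enzymes of nucleotide supply, and regulators of S-phase entry. Members were taken by platform annotation symbol, with the brightest probe for each gene, and all 31 were measured among the 17752 genes tested. RNA came from NCI-H441, an established human lung adenocarcinoma cell line, 12 h after the compound CLEFMA was added at 1 µM (5 arrays, treated) or after the DMSO vehicle alone (5 arrays, control), with DMSO at 0.1% in both groups. The treatment protocol gives the controls this vehicle, while their sample label calls them untreated, and the protocol is followed here. All arrays are of this 1 line in culture. The labels name 5 replicates a group, 4 wells a group and 3 biological replicates in different places, so a p-value here speaks of the scatter among these arrays alone, which may be technical.

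Before a cell copies its DNA, ORC, CDC6 and CDT1 load the ring of MCM2 to MCM7 onto origins in G1. At S-phase entry CDC45 and the GINS complex join the ring to form the active helicase, and polymerases, the sliding clamp PCNA and its loader RFC follow. Transcription of most of these genes is periodic: cyclin D and cyclin E kinases inactivate the RB family, which frees E2F factors to drive them around the G1/S boundary. Summed over a culture, such transcripts follow the share of cells near S phase, and in bulk RNA a change in that share and a change in RNA per cell cannot be told apart.

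Promoters are shown because E2F factors are known to act there. RefSeq windows of GRCh38.p14, from 250 bases before to 50 bases after each annotated start, were in the table used for 28 members; MCM4, MCM5 and CCNE2 were not matched. They were searched on both strands for the E2F-type word TTTNNCGC, where each N was C or G. A match was found in 18 of the 28 genes (64.3%), against 3.99% of the 27305 genes in the table. Genes with several starts have several windows and more room for a match, so the single-start genes were also counted alone: 14 of 20 members had one, against 3.18% of all such genes. A match is a description of letters, not a bound site. In the stretches below, each printed 5′ to 3′ on the gene's strand, capitals mark the matches. The sequences cover the 100 bases before the start, except for MCM6, where they run from 170 to 71 bases before it. FEN1 is shown as a member without a match in its window. For MCM7 and PCNA, which have several starts, the first window listed is shown.
GINS2 (chr16:85688955-85689054, minus strand): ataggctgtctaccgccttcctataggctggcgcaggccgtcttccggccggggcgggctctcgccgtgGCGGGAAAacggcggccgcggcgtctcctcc
CDT1 (chr16:88803689-88803788, plus strand): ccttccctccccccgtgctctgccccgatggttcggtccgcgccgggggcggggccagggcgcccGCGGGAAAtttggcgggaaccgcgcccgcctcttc
MCM6 (chr2:135876514-135876613, minus strand): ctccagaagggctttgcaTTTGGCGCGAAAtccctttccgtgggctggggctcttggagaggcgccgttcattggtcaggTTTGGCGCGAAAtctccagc
MCM7 (chr7:100101398-100101497, minus strand): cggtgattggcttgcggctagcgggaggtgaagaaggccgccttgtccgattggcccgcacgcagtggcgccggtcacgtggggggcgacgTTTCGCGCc
PCNA (chr20:5126623-5126722, minus strand): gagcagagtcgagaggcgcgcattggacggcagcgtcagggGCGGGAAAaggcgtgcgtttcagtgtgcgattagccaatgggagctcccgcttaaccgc
TYMS (chr18:657553-657652, plus strand): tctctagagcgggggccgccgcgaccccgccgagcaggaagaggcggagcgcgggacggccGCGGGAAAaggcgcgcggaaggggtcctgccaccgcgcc
E2F1 (chr20:33686386-33686485, minus strand): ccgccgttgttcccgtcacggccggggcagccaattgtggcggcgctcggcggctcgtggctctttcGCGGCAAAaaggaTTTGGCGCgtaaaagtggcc
FEN1 (chr11:61792811-61792910, plus strand): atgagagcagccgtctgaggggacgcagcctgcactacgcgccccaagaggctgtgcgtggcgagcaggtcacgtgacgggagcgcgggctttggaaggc

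In MCM6 the motif stood 4 times, as 2 pairs in which the forward and reverse words overlap by 4 bases. E2F1 carried it on both strands in its own promoter. Over all windows of the members there were 26 matches, of which 13, in 11 genes, lay within the 100 bases before a start and 4, in 3 genes, lay after it. Among the other replication and G1/S genes with a window 23 of 70 had the word, and among G2/M genes 2 of 23. For comparison, the word TTTGAA of the cell cycle homology region was found in 2 of the 28 members, 16 of the 23 G2/M genes and 18.2% of all genes, and CCAAT in 18 of 28, 21 of 23 and 39.7%. None of these shares was tested.

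**Figure D1:**
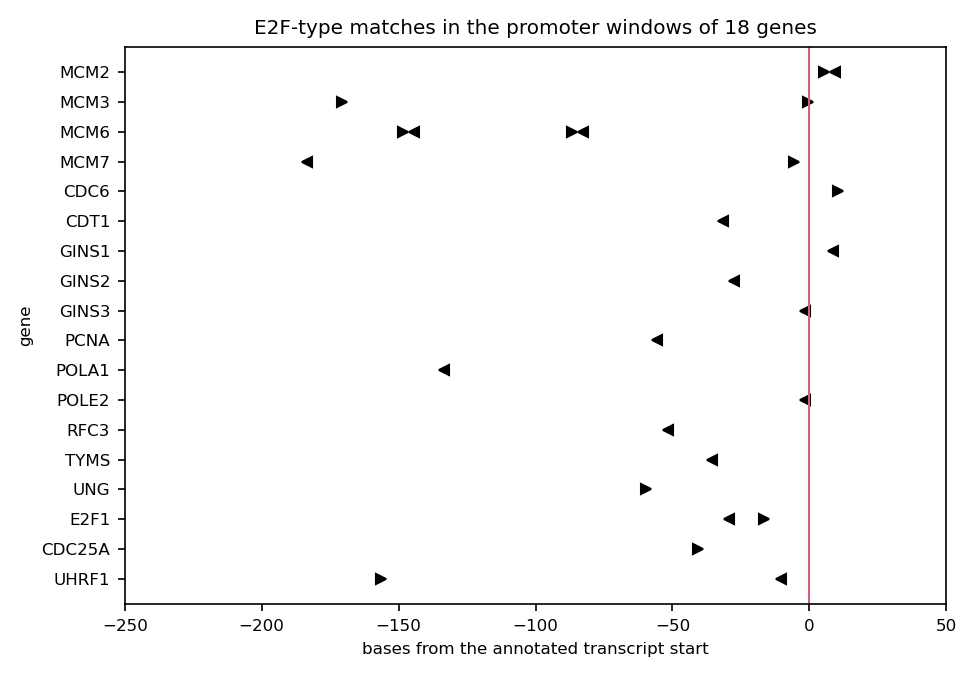
Position of each E2F-type match, in bases from the annotated start (red line at 0), for the 18 members with at least one; arrowheads point right for the word on the gene's strand and left for its reverse complement. Of the 26 matches, 13 sit in the 100 bases before a start, and MCM6 has 2 overlapping pairs.

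On the arrays, 49.1% to 53.7% of probes were above background, taken as a deposited log10 value above 0.2. Of the line's own markers, 11 of 13 epithelial and lung markers were above background on every array, EPCAM, KRT18 and KRT19 among them, while SFTPC was above it on 0 arrays. Of 6 fibroblast markers measured, 3 were above background on all arrays, as were 4 of 8 leukocyte and 2 of 4 endothelial markers. The mean level of each of these 3 lists overlapped between control and treated arrays. That of the epithelial and lung list did not: it was 8.63 to 8.76 on the controls and 8.52 to 8.60 on the treated arrays, with 2 of 13 differences positive and a median of −0.13, and its part in the results below was not tested. The mean correlation of control 3 with the remaining arrays was 0.978, against 0.986 to 0.990 for each of those, and results are therefore also given without it. All levels below are log2 units on the normalized scale, and levels of different genes come from different probes and are not comparable.

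None of the 31 members differed between treated and control cells by limma, where 53 of all genes (0.299%) did, 47 of them higher (0.265%) and 6 lower (0.0338%) in treated cells. The lowest limma adjusted p of a member was 0.567, for GINS2, and at an unadjusted p under 0.05 there were 0 members on either side, against 4.48% of all genes on each side. The median difference of the members was 0.13, against 0.01 for all genes, and 24 of 31 were positive, against 51.5% of all genes. Values of control and treated arrays overlapped for all 31 members, where 2.5% of all genes showed no overlap (1.46% higher and 1.04% lower). Standard errors of the 31 differences ran from 0.09 to 0.31, and all 31 intervals included 0. For 30 members the 95% interval stayed within 1 log2 unit on either side and for 18 within 0.5.

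**Figure D2:**
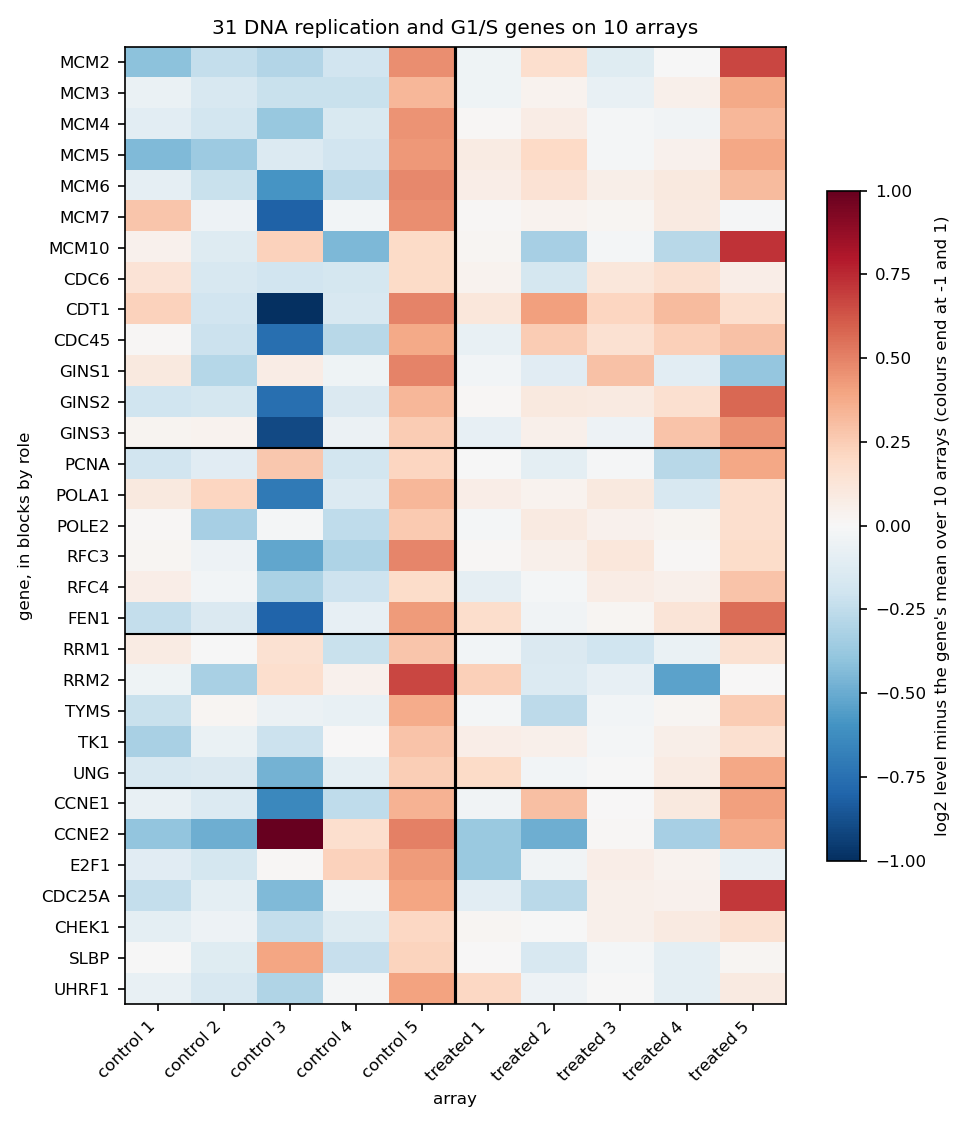
Log2 level of each member on each array minus its mean over 10 arrays (colour), with genes in rows, in blocks by role, and the 5 control and 5 treated arrays in columns. Control 5 and treated 5 are red for most genes, and control 3 is blue for many of the helicase genes and for most of the polymerase block.

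Among the 13 genes of licensing and the helicase, 0 passed and 12 had positive differences, with a median of 0.26. With control 3 and both arrays numbered 5 left out, the median of this block was 0.15. GINS2, a subunit of the GINS complex, was at 7.58, 7.60, 7.02, 7.63 and 8.11 on controls 1 to 5 and at 7.79, 7.87, 7.87, 7.94 and 8.35 on treated 1 to 5. Every treated array was above controls 1 to 4, and control 5 was above all treated arrays but treated 5. The difference was 0.37 ± 0.18 (SE, n = 5 per group; limma adjusted p = 0.567), or 0.23 without control 3. CDC45, the helicase partner of MCM and GINS, was at 6.98, 6.76, 6.22, 6.70 and 7.35 on the controls and at 6.90, 7.23, 7.13, 7.21 and 7.27 on the treated arrays. Control 3 was lowest and control 5 highest of all 10, with the treated arrays between them; the difference was 0.34 ± 0.17 (limma adjusted p = 0.582), or 0.20 without control 3.

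CDT1, which loads the MCM ring and is kept in check by geminin, had the largest difference of any member, 0.49 ± 0.31 (limma adjusted p = 0.63). Control levels were 6.64, 6.22, 4.80, 6.24 and 6.90, and treated levels were 6.52, 6.82, 6.62, 6.73 and 6.58. The size of the difference comes mostly from control 3: without that array it was 0.15. CDC6, the other loader, was dim, and its difference was 0.08 ± 0.11. MCM10, which helps to activate the loaded helicase, was at 6.74 on treated 5 and at 5.68 to 6.04 on the other treated arrays, against 5.57 to 6.25 on the controls, and differed by 0.04 ± 0.20.

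The 6 subunits of the MCM ring had differences from 0.06 for MCM7 to 0.28 for MCM5. MCM5 was at 6.50, 6.58, 6.81, 6.75 and 7.38 on the controls and at 7.02, 7.14, 6.92, 6.99 and 7.33 on the treated arrays. Here again the treated arrays lay above controls 1 to 4 and below control 5, and the difference was 0.28 ± 0.15 (limma adjusted p = 0.601). MCM6 showed the same order, with controls at 9.17, 9.03, 8.66, 9.00 and 9.74 and treated arrays at 9.33, 9.40, 9.32, 9.35 and 9.57. Its difference was 0.27 ± 0.16 (limma adjusted p = 0.612), or 0.16 without control 3. MCM2, at 6.29, 6.46, 6.40, 6.51 and 7.16 on the controls and 6.65, 6.87, 6.57, 6.69 and 7.36 on the treated arrays, differed by 0.27 ± 0.18. MCM4 differed by 0.15 ± 0.14 and MCM3 by 0.14 ± 0.13. Without control 3 the differences of MCM5, MCM2, MCM4 and MCM3 were 0.28, 0.23, 0.07 and 0.10.

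MCM7 was the subunit with the widest contrast in spread. Its controls were at 10.62, 10.30, 9.53, 10.32 and 10.81 (SD 0.49), while its treated arrays lay between 10.34 and 10.44 (SD 0.04). Without control 3 its difference turned from 0.06 to −0.13. GINS1 and GINS3, further subunits of the GINS complex, had opposite signs: GINS3 differed by 0.26 ± 0.20, or 0.07 without control 3, and the dim GINS1 by −0.14 ± 0.15. On control 3 GINS3 was at 5.37, while the other controls lay between 6.21 and 6.53 and treated arrays between 6.20 and 6.73.

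**Figure D3:**
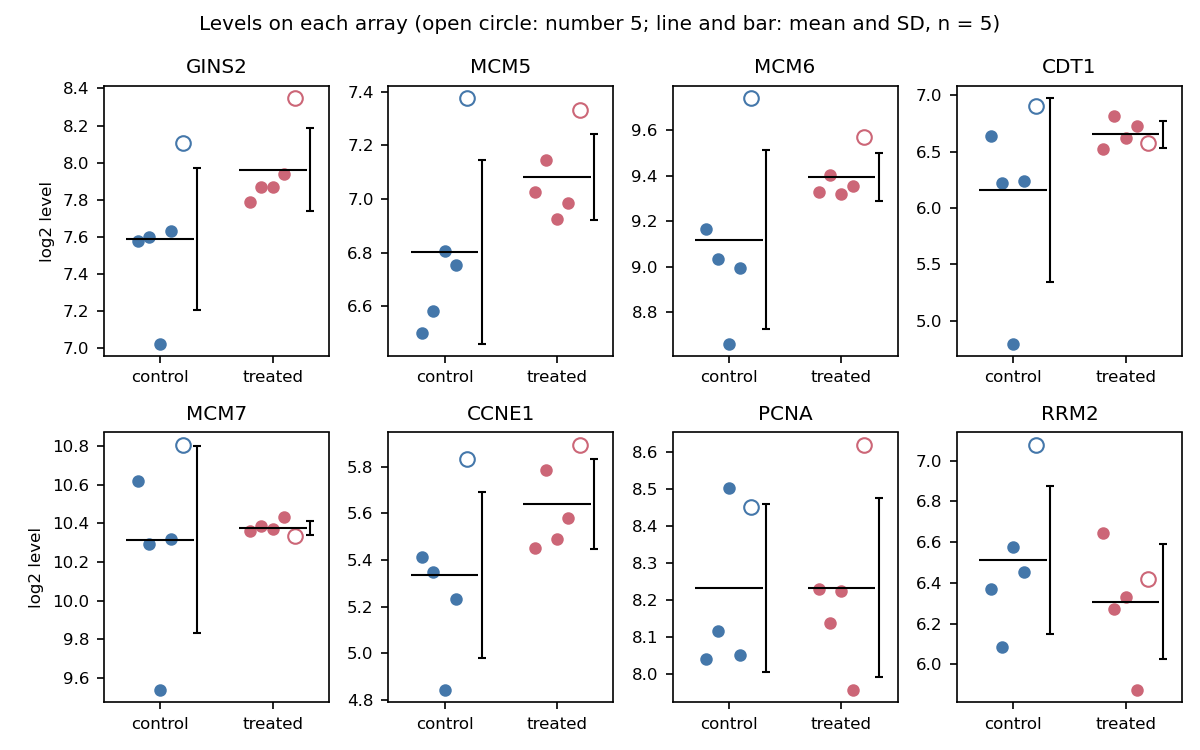
Log2 level of 8 members on each array, controls in blue and treated in red, with filled circles for numbers 1 to 4 and open circles for number 5; lines and bars are the mean and SD of 5 arrays, and the vertical axes do not start at 0. For GINS2, MCM5 and MCM6 the treated circles lie above the filled control circles, and the open control circle lies with or above them.

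Of the 6 polymerase, clamp and lagging-strand genes, 0 passed and all 6 fitted differences were 0.00 or above, with a median of 0.12. FEN1, the nuclease that trims Okazaki fragment flaps, was at 8.35, 8.44, 7.79, 8.51 and 9.02 on the controls and at 8.77, 8.55, 8.61, 8.72 and 9.15 on the treated arrays. Its difference was 0.34 ± 0.19 (limma adjusted p = 0.606), or 0.18 without control 3. PCNA, the sliding clamp, was at 8.04, 8.11, 8.50, 8.05 and 8.45 on the controls and at 8.23, 8.14, 8.22, 7.96 and 8.62 on the treated arrays. The PCNA difference was 0.00 ± 0.14, with an interval from −0.30 to 0.30. The clamp loader subunits RFC3 and RFC4 differed by 0.15 ± 0.16 and 0.12 ± 0.11, or by 0.04 and 0.06 without control 3. POLE2, a subunit of the leading-strand polymerase, differed by 0.13 ± 0.11, or 0.14 without control 3. POLA1, the catalytic subunit of the priming polymerase, differed by 0.08 ± 0.17, or −0.09 without control 3. On control 3 POLA1 was at 4.12, and on all other arrays between 4.67 and 5.16.

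The 5 genes of nucleotide supply and uracil removal had a median difference of −0.01, and 0 passed. UNG, the glycosylase that removes uracil from DNA, was at 9.09, 9.10, 8.78, 9.15 and 9.50 on the controls and at 9.44, 9.22, 9.25, 9.33 and 9.64 on the treated arrays. Treated arrays lay above controls 1 to 4, and the difference was 0.25 ± 0.13 (limma adjusted p = 0.583), or 0.17 without control 3. RRM2, the S-phase subunit of ribonucleotide reductase, had the sign reversed: controls were at 6.37, 6.09, 6.58, 6.45 and 7.08, treated arrays at 6.65, 6.27, 6.33, 5.87 and 6.42, and the difference was −0.21 ± 0.18. Its partner RRM1 differed by −0.12 ± 0.11. TYMS, thymidylate synthase, differed by −0.01 ± 0.13 and TK1, thymidine kinase, by 0.13 ± 0.11. In MCM6, UNG and FEN1, control 3 was the lowest of the 10 arrays, and in RRM1 it was above 3 of the other controls.

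The 7 genes of G1/S control, checkpoint and chromatin had a median difference of 0.06, and 0 passed. CCNE1, a cyclin that drives S-phase entry, was at 5.41, 5.35, 4.84, 5.23 and 5.83 on the controls and at 5.45, 5.79, 5.49, 5.58 and 5.89 on the treated arrays, a difference of 0.31 ± 0.16 (limma adjusted p = 0.589), or 0.18 without control 3. CHEK1, the kinase of the replication checkpoint, lay within a narrow range, at 6.93, 6.98, 6.79, 6.89 and 7.23 on the controls and at 7.04, 7.02, 7.08, 7.11 and 7.18 on the treated arrays. Its difference of 0.12 ± 0.09 has the smallest error of the 31. E2F1, a transcriptional activator of S-phase genes, was dim and differed by −0.15 ± 0.13. CCNE2 was above background on 3 control arrays and 1 treated array, so its −0.32 ± 0.27 rests on values near the floor, with control 3 at 3.09 the highest. CDC25A, a phosphatase that activates CDK2, differed by 0.17 ± 0.19, or 0.08 without control 3. SLBP, which binds histone mRNA, differed by −0.10 ± 0.12 and UHRF1, which recruits the maintenance DNA methyltransferase, by 0.06 ± 0.13. Without control 3 these were −0.02 and −0.01.

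The arrays numbered 5 stood apart in both groups. On control 5 all 31 members were above their mean over controls 1 to 4, by 0.21 to 0.93 with a median of 0.50, where 49.7% of all genes were above it and the median was 0.00. Control 5 was the highest control for 27 members, against 22.8% of all genes. On treated 5, 27 members were above their mean over treated 1 to 4, with a median of 0.26, where 48.5% of all genes were above it; treated 5 was the highest treated array for 24 members, against 27.5% of all genes. Exceptions on treated 5 were GINS1 (−0.39), CDT1 (−0.09), MCM7 (−0.05) and E2F1 (0.00 after rounding). Of 82 other replication and G1/S genes, 63 were above the mean of the other controls on control 5 (median 0.24). On treated 5, 57 of these 82 were above the mean of the other treated arrays (median 0.15). Control 3 was the lowest control for 18 members, against 32% of all genes. Leaving it out moved the treated-control difference by over 1.5 times or turned its sign for 22 of 31 members. The same held for 20 of 29 other named genes, a like share. The share over all genes was not counted, and a difference near 0 passes this mark easily. As mean levels relative to all 10 arrays, the members were at −0.08, −0.15, −0.29, −0.13 and 0.36 on controls 1 to 5 and at 0.00, −0.01, 0.03, 0.00 and 0.27 on treated 1 to 5. Members share transcriptional control and arrays, so 31 genes are not 31 separate observations of an array. What set control 3 and the arrays numbered 5 apart was not tested. Marker lists of other cell types are given beside these arrays. Fibroblast markers had a mean level of 3.47 to 3.66 on the controls (3.47 on control 5) and 3.45 to 3.57 on the treated arrays (3.54 on treated 5). Leukocyte markers were at 3.15 to 3.38 on the controls (3.25 on control 5) and 3.20 to 3.39 on the treated arrays (3.20 on treated 5). Endothelial markers were at 2.70 to 3.16 (3.11 on control 5) and 2.66 to 3.07 (2.66 on treated 5). Epithelial and lung markers were lowest of each group on the arrays numbered 5, at 8.63 of 8.63 to 8.76 and at 8.52 of 8.52 to 8.60. Relative to all 10 arrays this list was at 0.003 on control 5 and 0.012 on control 1, the next lowest control. It was at −0.106 on treated 5 and −0.067 on treated 3, the next lowest treated array.

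**Figure D4:**
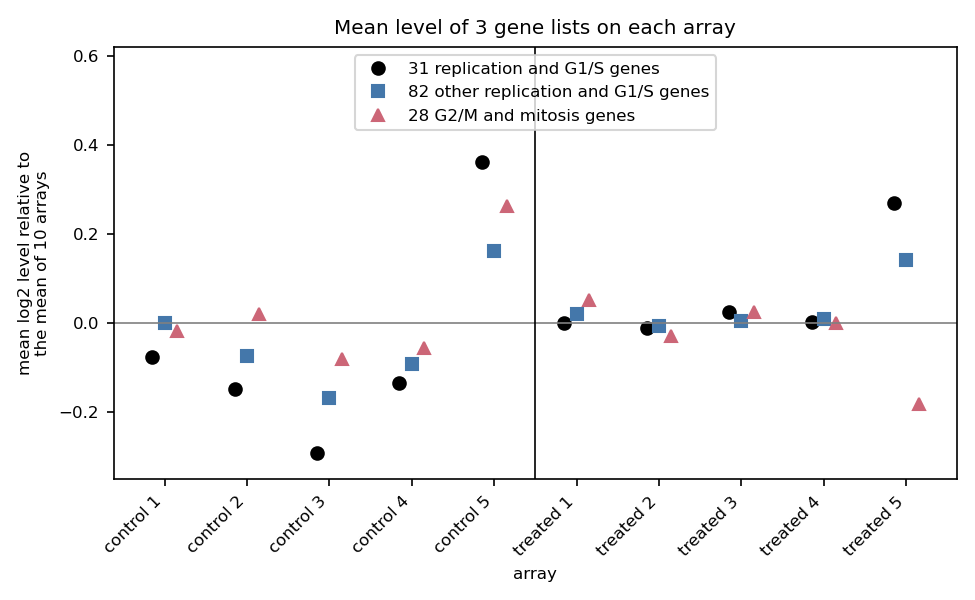
Mean log2 level relative to the mean of 10 arrays, for the 31 members (black circles), 82 other replication and G1/S genes (blue squares) and 28 G2/M genes (red triangles) on each array. The members are at 0.36 on control 5 and 0.27 on treated 5, the other replication and G1/S genes at 0.16 and 0.14, and the G2/M genes at 0.26 and −0.18.

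Controls spread more than treated arrays for these genes. The SD of the controls was above that of the treated arrays in 28 of 31 members, with medians of 0.31 and 0.16. Over all genes it was so in 64% of genes, with medians of 0.22 and 0.17. Control 5 was the highest control for 27 members and control 3 the lowest for 18. The spread of the members without these arrays was not computed.

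Over numbers 1 to 4 the median difference of the members was 0.17, against 0.01 for all genes. Control and treated values were fully separated for 9 members, all higher in treated cells (29%), where 4.25% of all genes were separated in that direction; 0 members were separated in the other, against 3.42%. These 9 were MCM2, MCM4, MCM5, MCM6, GINS2, FEN1, UNG, CCNE1 and CHEK1. On all 10 arrays 0 members were separated, and control 5 was the highest control for 27 members. Leaving out the arrays numbered 5 therefore lowers the top of the control range for those 27 by construction. Still no member passed: 9 were higher at an unadjusted p under 0.05 in limma, against 5.12% of all genes, and 0 were lower, against 4.71%; 0.22% of all genes passed on the higher side and 0.0169% on the lower. The lowest limma adjusted p was 0.297, for MCM5 (0.36 ± 0.10). Between the arrays numbered 5 the median difference was −0.12 and 11 of 31 members were higher on treated 5, where 46.1% of all genes were. For 27 members the difference at number 5 was below that over numbers 1 to 4, and the share over all genes was not counted. The gap between these differences equals the excess on treated 5 less the excess on control 5. It restates those excesses and is not a separate result. CDT1 was at 0.70 ± 0.35 over numbers 1 to 4 and at −0.32 at number 5, MCM6 at 0.39 ± 0.11 and −0.17, and MCM5 at 0.36 and −0.04. For GINS2 the values were 0.41 ± 0.14 and 0.24. A single pair of arrays gives no error, so the difference between number 5 and the others was not tested.

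Leaving out control 3 as well reduced the median to 0.10, with 25 of 31 positive. The 9 members separated over numbers 1 to 4 stay separated by construction when an array is left out, and no further member joined them. In this comparison of 3 controls with 4 treated arrays, 5.27% of all genes were separated as higher in treated cells and 4.97% as lower. At an unadjusted p under 0.05 in limma, 11 members were higher and 0 lower, against 5.38% and 5.17% of all genes, and 0 passed, against 0.287% and 0.0563%. The lowest limma adjusted p was then 0.163, for MCM5 (0.41 ± 0.09). Leaving out control 5 alone gave a median of 0.21, with 14 members higher at an unadjusted p under 0.05 in limma, against 6.15% of all genes, and 0 lower, against 5.71%. In that fit 0.231% of all genes passed on the higher side and 0.0451% on the lower, and the lowest limma adjusted p of a member was 0.211, for MCM5. Since all 31 members were above the mean of the other controls on control 5, its removal had to raise every difference. Leaving out control 3 alone gave a median of 0.07, and leaving out treated 5 alone one of 0.07. With any single array other than control 5 left out, 0 members reached an unadjusted p under 0.05 in limma. Of all genes, 3.7% to 4.73% then did on the higher side. In each of these fits 0 members passed.

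**Figure D5:**
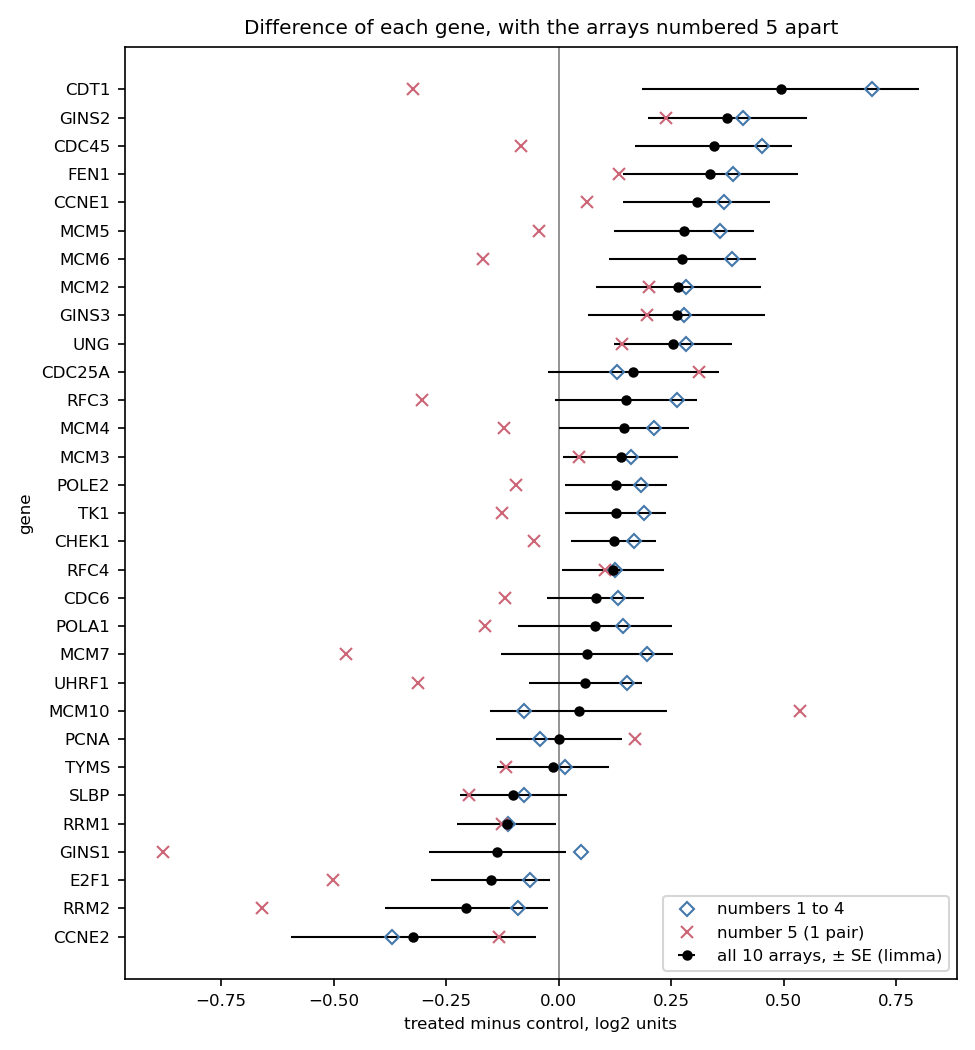
Treated minus control on the log2 scale for each member, as fitted on all 10 arrays with SE (black), over numbers 1 to 4 (open diamonds) and between the arrays numbered 5 (crosses). For 27 of 31 genes the cross lies to the left of the diamond, a share not counted over all genes. The black intervals of 1 SE for the largest differences do not reach 0, although none of the 31 passed.

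Fuller coverage of the pathway came from 87 other replication and G1/S genes, of which 82 were measured. None of the 82 passed in limma; an unadjusted p under 0.05 was reached by 5 on the higher side and 3 on the lower (4.48% of all genes on each side), and the median difference was 0.05. Of 17 other origin factors the median was 0.03: ORC1 differed by 0.31 ± 0.21, ORC6 by 0.08 ± 0.09, the origin-firing kinase CDC7 by −0.10 ± 0.11 and its activator DBF4 by −0.30 ± 0.15. GMNN, geminin, differed by −0.08 ± 0.16, MCM8 by 0.21 ± 0.17 and GINS4 by 0.01 ± 0.12. Of 21 polymerase and fork genes the median was 0.11. PRIM1, the primase, differed by 0.30 ± 0.12 (limma adjusted p = 0.51) and RPA2, of the single-strand binding complex, by 0.39 ± 0.15 (limma adjusted p = 0.479), while POLD1 was at −0.08 ± 0.10, POLE at 0.05 ± 0.19 and the ligase LIG1 at −0.14 ± 0.16.

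Nucleotide and control genes of that list showed no common direction. DUT differed by 0.01 ± 0.12 and the p53-inducible reductase subunit RRM2B by −0.22 ± 0.20. Of the cyclins and their kinase, CCND1 differed by −0.12 ± 0.09, CCNA2 by 0.02 ± 0.09 and CDK2 by 0.10 ± 0.15. The CDK inhibitors CDKN1A and CDKN1B differed by 0.05 ± 0.20 and −0.01 ± 0.10. RB1, the pocket protein that holds E2F in check, differed by −0.45 ± 0.16 (limma adjusted p = 0.463), and the activator E2F2 by 0.41 ± 0.24, or 0.16 without control 3. The repressor E2F8 was at −0.10 ± 0.22 and MYC at 0.21 ± 0.17, or 0.03 without control 3. CHAF1A, of the histone chaperone that follows the fork, differed by 0.20 ± 0.12 and DNMT1 by −0.07 ± 0.11.

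Genes of G2/M and mitosis were set beside the members. Over all arrays the 28 G2/M genes had a median difference of −0.06, or 0.02 over numbers 1 to 4, with 7 of 28 positive over all arrays and 0 passed. On control 5, 24 of 28 were above their mean over controls 1 to 4 (median 0.29). On treated 5, 6 of 28 were above their mean over treated 1 to 4 (median −0.21), and 0 of 28 were higher on treated 5 than on control 5, against 11 of 31 members and 46.1% of all genes. MKI67, a marker of cycling cells that was dim here, differed by −0.63 at number 5, TOP2A by −0.43, CDK1 by −0.43 and CCNB1 by −0.12. At the single numbers 1 to 4, MKI67 ran from −0.56 to 0.90 and TOP2A from −0.37 to 0.34. CDK1 ran from −0.26 to 0.21 there and CCNB1 from −0.60 to 0.13. Over all arrays the differences of MKI67, TOP2A, CDK1 and CCNB1 were −0.03 ± 0.21, −0.15 ± 0.12, −0.06 ± 0.10 and −0.13 ± 0.13. CDKN1A on treated 5 was at 7.43, against 8.18 to 8.35 on the other treated arrays. Among the controls it was at 7.60 on control 3, where the members were lowest, at 7.80 on control 5 and at 8.19 to 8.35 on the rest. With 1 array of each kind at number 5, these contrasts carry no error and were not tested.

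The 18 members with a match had a median difference of 0.13 and a median excess of 0.52 on control 5 and 0.19 on treated 5. The 10 members without a match in their windows had 0.12, 0.39 and 0.21, and the 3 with no window 0.15, 0.66 and 0.32. Further probes were available for 14 members, 19 in all, of which 16 were above background on all 10 arrays. Their differences ran from −0.19 to 0.18 and had the sign of the brightest probe in 8 of 19, or 7 of those 16. On control 5, 16 of the 19 were above their mean over controls 1 to 4. For MCM7 the other probes differed by −0.15 and −0.12, for SLBP by 0.15 and for RFC4 by 0.12, the same as its brightest probe.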

How the data were processed

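Total RNA was measured on 10 Illumina HumanWG-6 v3.0 bead arrays, 5 a group; groups and replicate numbers come from the sample titles. The members and gene lists were chosen with earlier results of these data known. Per-probe values deposited by the authors are on a log10 scale; the scanner software, any background step and the normalization were not given in the sources used here. No header states the base; 10 was inferred from the range, since the highest value, 3.79, would be a very low signal in base 2 or e. A deposited table of scanner signal has 10 value columns that match no sample by name and was not used. From 24.2% to 25.2% of probes an array sat at its lowest value.

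These deposited values were made linear, raised by 3 units, turned to log2 and quantile normalized; the offset understates changes of dim genes. Probes with a mean above the 25th percentile of all values were kept (44606 of 48803). Symbols came from the platform annotation, updated by Entrez identifier (27541 of 27578 probes with 1 symbol); 13 probes had several and 21212 none. The brightest probe stood for a gene. Limma 3.58.1 in R 4.3.3 (lmFit, eBayes, two-sided, no covariate) was fitted on all 17752 genes, with Benjamini-Hochberg adjustment over all of them and a threshold of 0.05. Intervals of differences are 95% intervals from that fit. The fit was tested on simulated data first.

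All 31 members were named whatever their result, as were 29 measured genes of the other lists; up to 3 passing genes a list would have been added, and there were none. Promoter windows are RefSeq's, from a table of GRCh38.p14, matched by symbol. Alternatives covered offset, normalization, filter, probe rule, array weights, replicate block, the arrays numbered 5, and each array left out. The files name no slide, so a slide block was not run.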

Additional observations from a re-analysis of the deposited data

Results flagged for a closer look

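In 13 of 122 sets of 5 arrays examined (10.7%), 1 array lay far from the other 4 by Dixon's criterion; chance gives about 1 in 20, and over all genes 16.3% of control sets and 12.6% of treated sets met it. Of the members, MCM2 was at 7.16 on control 5 (other controls 6.29 to 6.51). MCM3 was at 10.13 on control 5 (9.57 to 9.73) and at 10.17 on treated 5 (9.72 to 9.85). GINS2 was at 8.35 on treated 5 (7.79 to 7.94), and GINS3 was low on control 3, at 5.37 (6.21 to 6.53). The mean of the members relative to all arrays was 0.27 on treated 5 (−0.01 to 0.03).

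Of the other replication and G1/S genes, PRIM1 was high on control 5, at 7.05 (6.46 to 6.63). On treated 5, GMNN was at 7.93 (7.26 to 7.31), POLE at 5.22 (4.45 to 4.66) and RPA2 at 8.86 (8.51 to 8.56), while CDKN1A was low, at 7.43 (8.18 to 8.35). DBF4 was low on control 4, at 2.32 (2.83 to 3.04), and MYC was low on control 3, at 7.94 (8.70 to 8.96).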

How the results depend on the processing

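None of the 31 members or 29 other named genes passed in any of the 22 alternatives in which it was tested; CCNE2 was left untested by the filter of above background on at least 5 arrays. The members' median difference stayed positive, between 0.07 and 0.21. Over all genes, 47 were higher and 6 lower as reported, against 26 and 2 with the deposited values, and 71 and 16 with array weights. Leaving out 1 array at a time gave 26 to 42 higher and 1 to 8 lower; genes lower were 3 without both arrays numbered 5, 16 with number 5 as a batch term, and 10 without control 3 and the arrays numbered 5. Causes were not tested. Of the members, 8 changed sign at least once, as did 16 of the 29 others, all of them uncalled differences. With the mean over all probes of a gene, the signs turned for MCM7 (−0.069), MCM10 (−0.035), POLA1 (−0.0057), SLBP (0.022), UHRF1 (−0.068), CDKN1B (0.011). With array weights, the signs turned for MCM7 (−0.043), POLA1 (−0.044), GINS4 (−0.034), POLE (−0.031), CDKN1B (0.016). With median scaling, the signs turned for MCM10 (−0.034), PCNA (−0.027), POLA1 (−0.0071), GINS4 (−0.078), POLE (−0.039), DUT (−0.064), CCNA2 (−0.0052), CDKN1A (−0.00047). With the deposited values as they are, the signs turned for GINS4 (−0.046), POLE (−0.0021), DUT (−0.029). Without both arrays numbered 5, the signs turned for MCM10 (−0.078), GINS1 (0.050), PCNA (−0.041), TYMS (0.013), E2F8 (0.0022), DNMT1 (0.021), MKI67 (0.12), CDK1 (0.029). Without control 3 and both arrays numbered 5, chosen after seeing the data, the signs turned for MCM7 (−0.023), GINS1 (0.087), POLA1 (−0.050), TYMS (0.023), SLBP (0.051), GINS4 (−0.0030), LIG1 (0.036), CDKN1A (−0.014), CDKN1B (0.048), E2F8 (0.012), MYC (−0.0093), MKI67 (0.13), TOP2A (0.023), CCNB1 (0.0050). Leaving out 1 array at a time, signs turned for MCM7 (−0.13 to 0.19), MCM10 (−0.13 to 0.13), PCNA (−0.096 to 0.070), POLA1 (−0.086 to 0.17), TYMS (−0.077 to 0.078), UHRF1 (−0.0076 to 0.17), GMNN (−0.21 to 0.030), GINS4 (−0.054 to 0.093), POLE (−0.086 to 0.20), DUT (−0.040 to 0.11), CDK2 (−0.029 to 0.22), CCNA2 (−0.013 to 0.081), CDKN1A (−0.062 to 0.22), CDKN1B (−0.078 to 0.035), E2F8 (−0.24 to 0.074), MKI67 (−0.23 to 0.11). Same-numbered arrays had correlated deviations for numbers 2 (0.19) and 5 (0.25) but not in every pair (lowest −0.09), and 5 of 10 arrays correlated best with their own number. These values do not settle whether the numbers are pairs, and the main fit took the arrays as unpaired. The fit with the replicate block called 40 higher and 5 lower, 6 members higher at an unadjusted p under 0.05 in limma (5.19% of all genes), and 0 passing; with number 5 as a batch term 8 members were (5.23%), and 0 passed. The number of arrays, 5 a group, limits the precision, and CCNE2 is near background.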
